A study of Homo sapiens with 18 samples.

Results

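The APOBEC3 and ADAR genes encode the human enzymes that edit nucleic acids by deamination as part of intrinsic antiviral defence. The set held 9 of the 62754 genes listed in the gene count matrix, namely APOBEC3A, APOBEC3B, APOBEC3C, APOBEC3D, APOBEC3F, APOBEC3G, APOBEC3H, ADAR and ADARB1, each chosen by its gene symbol. Of these, 8 were among the 15167 genes with enough counts to be tested, and APOBEC3A was not. RNA was sequenced from EA.hy926 cells, a human umbilical vein endothelial line immortalised by fusion with the lung epithelial line A549. The cells received transfection reagent without siRNA (Mock), a non-targeting siRNA at 10 nM (siNT) or a pool of siRNAs against ELMO1 at 10 nM (siELMO1). ELMO1 is an adaptor protein that helps activate the GTPase RAC1. At 48 h after transfection, and after a night in low serum, cells were either collected (0 h) or given 1 μg/ml poly(I:C), a synthetic double-stranded RNA that mimics viral RNA, and collected 24 h later. The 6 conditions had 3 libraries each. No library was made at 24 h without poly(I:C), so its effect and that of 24 h more in culture cannot be told apart. A response to poly(I:C) below means the change from 0 h to 24 h. Comparisons within the set asked whether the editors changed between these times. They also asked whether ELMO1 knockdown altered the level or the response of the editors.

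APOBEC3 enzymes convert cytosine to uracil in single-stranded DNA, and several of them restrict retroviruses and retroelements. ADAR and ADARB1 (ADAR2) convert adenosine to inosine in double-stranded RNA, and ADAR editing of cellular double-stranded RNA keeps the RNA sensors MDA5 and PKR from being activated by it. ADAR is made as a short constitutive protein, p110, and a long protein, p150, whose transcript starts at an interferon-inducible promoter.

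Gene counts totalled 40374756 to 73850946 per library, and levels are given as per-million counts of a library (CPM) after scaling by trimmed mean of M-values (TMM) factors. ELMO1 averaged 3.02 CPM in Mock, 2.94 in siNT and 0.34 in siELMO1 cells at 0 h, and 2.32, 3.31 and 0.267 CPM at 24 h, so the targeted gene was low in all 6 siELMO1 libraries. The endothelial markers PECAM1, CDH5 and TEK were present in all 18 libraries, and of the epithelial markers, KRT8 (189 to 486 CPM) and KRT18 (260.0 to 599 CPM) were abundant in all 18, KRT19 and EPCAM did not exceed 1.24 CPM and CDH1 was at 0 counts. The 5 epithelial markers summed to 765 to 1087 CPM at 0 h and 484 to 627 CPM at 24 h, and their part in the results was not tested. Of the leukocyte markers, CD3E was at 0 in 18 libraries, CD14 was at 0 in 12 and PTPRC did not exceed 0.496 CPM. The summed leukocyte markers were 35.7 to 100.3 CPM at 0 h and 140 to 285 CPM at 24 h, most of it CD68, and the part of this sum in the results below was not tested. The mitochondrial share of counts was 1.31% to 2.42% in 16 libraries and 4.02% and 3.95% in siELMO1 0 h replicates 2 and 3, which were also the shallowest. In bulk RNA, a change in the number of cells that express a gene and a change in RNA per cell cannot be told apart. The methods of the study call the libraries of a condition biological replicates and do not say whether they come from separate experiments. The p-values of the gene tests set differences against the spread between replicate libraries, estimated over all 6 conditions together.

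Levels were compared between genes only per length, as per-million transcript values (TPM). APOBEC3C was the most abundant APOBEC3 gene in every condition, with 132 ± 4.77 TPM (SD, n = 3) in Mock cells at 0 h. APOBEC3B followed with 67.8 ± 3.78 TPM, and APOBEC3F and APOBEC3G stood at 7.80 ± 0.743 and 7.16 ± 0.669 TPM, which do not differ beyond their spread. APOBEC3D had 4.16 ± 0.406 TPM, while APOBEC3H with 1.82 ± 0.321 TPM and APOBEC3A with 1.16 ± 0.266 TPM were the lowest. ADAR at 114 ± 3.96 TPM was 6.34 ± 0.14 times ADARB1 at 18.0 ± 0.575 TPM. After 24 h of poly(I:C), the order in Mock cells was APOBEC3C (109 ± 1.85 TPM), APOBEC3B (76.8 ± 4.24), APOBEC3G (60.4 ± 4.20), APOBEC3F (33.7 ± 1.57) and APOBEC3D (9.93 ± 1.71), so that APOBEC3G had moved from the level of APOBEC3F to well above it. The ratio of ADAR to ADARB1 in TPM rose to 33.3 ± 0.921 in Mock, 24.9 ± 2.50 in siNT and 33.4 ± 3.32 in siELMO1 cells.

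**Figure D1:**
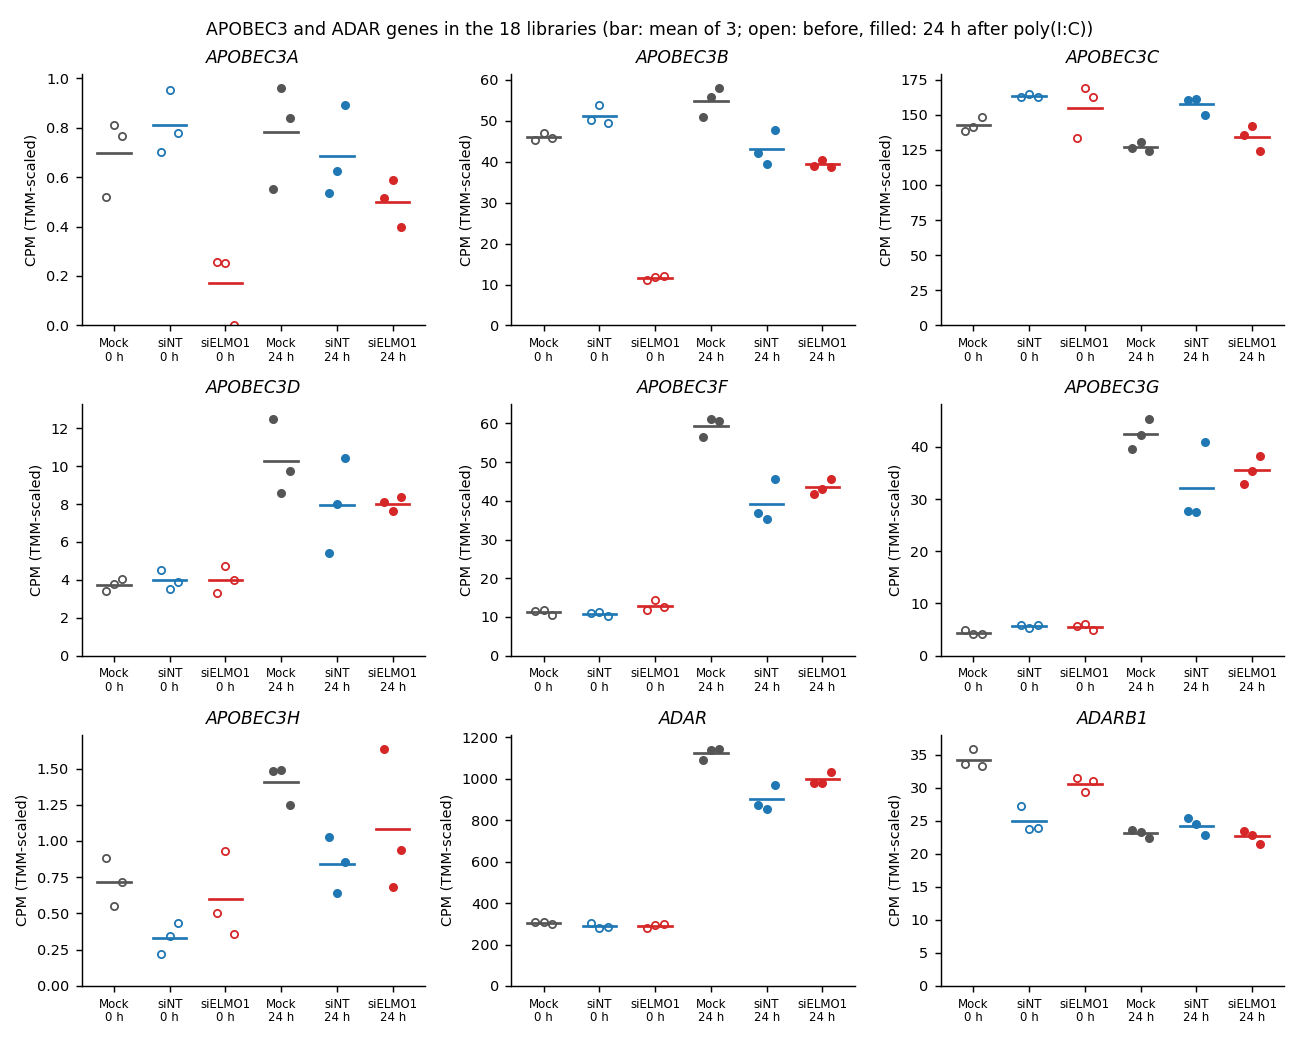
Level of each of the 9 genes in CPM (TMM-scaled, vertical axis) in the 3 libraries of each of the 6 conditions; open points are 0 h, filled points are 24 h after poly(I:C), and bars are means. APOBEC3F, APOBEC3G and ADAR separate fully by poly(I:C), whereas APOBEC3B is low only in siELMO1 cells at 0 h.

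APOBEC3D, APOBEC3F, APOBEC3G and ADAR were higher at 24 h of poly(I:C) than at 0 h in all 3 transfections. A gene was called changed at an adjusted p under 0.05 in edgeR's quasi-likelihood test with Benjamini-Hochberg adjustment over all genes tested, and fold changes are given with their standard errors (SE). Of the 8 tested members, 6 were called higher and 2 lower in Mock cells, where 30.7% of all genes tested were called higher and 29.6% lower. In siNT cells 5 were higher and 1 lower, against 28.6% and 25.2% of all genes, and in siELMO1 cells 5 were higher and 2 lower, against 28.0% and 26.9%. The members called higher in all 3 transfections were the 4 named above.

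APOBEC3G, the APOBEC3 enzyme known for restricting HIV-1 that lacks Vif, showed the largest fold change of the 8 in each transfection. Its 0 h libraries held 4.89, 4.15 and 4.202 CPM in Mock, 5.92, 5.32 and 5.92 in siNT and 5.71, 6.12 and 4.89 in siELMO1 cells. At 24 h they held 39.6, 42.3 and 45.4 CPM in Mock, 27.6, 27.5 and 41.0 in siNT, and 32.9, 35.3 and 38.3 in siELMO1 cells. Every 24 h library was above every 0 h library, and siNT replicate 3 stood apart from the other siNT libraries at 24 h. The log2 fold change was 3.27 ± 0.14 (SE) in Mock (adjusted p = 1.02e-12), 2.48 ± 0.14 in siNT (adjusted p = 6.32e-11) and 2.67 ± 0.14 in siELMO1 cells (adjusted p = 2.03e-11), which is 9.63-fold, 5.60-fold and 6.37-fold.

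APOBEC3F, a 2-domain cytidine deaminase that also restricts retroviruses, had 11.4, 11.8 and 10.5 CPM in Mock, 11.1, 11.2 and 10.2 in siNT and 11.7, 14.3 and 12.6 in siELMO1 cells at 0 h. At 24 h it had 56.5, 61.3 and 60.5 CPM in Mock, 36.8, 35.3 and 45.6 in siNT, and 41.7, 43.1 and 45.6 in siELMO1 cells. The Mock libraries at 24 h lay above all others. The log2 fold change was 2.40 ± 0.09 in Mock (adjusted p = 2.76e-13), 1.85 ± 0.09 in siNT (adjusted p = 1.99e-11) and 1.76 ± 0.09 in siELMO1 cells (adjusted p = 2.71e-11).

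APOBEC3D, which lies between APOBEC3C and APOBEC3F on the chromosome, rose by less. Its 3 libraries had 3.41, 3.79 and 4.04 CPM in Mock, 4.54, 3.53 and 3.89 in siNT and 3.32, 4.74 and 3.99 in siELMO1 cells at 0 h. At 24 h they had 12.5, 8.57 and 9.73 CPM in Mock, 5.42, 8.01 and 10.5 in siNT, and 8.09, 7.62 and 8.36 in siELMO1 cells. The groups did not overlap within any transfection, although the 24 h libraries of siNT cells were widely spread. The log2 fold change was 1.45 ± 0.20 in Mock (adjusted p = 5.57e-06), 1.00 ± 0.20 in siNT (adjusted p = 0.000365) and 1.01 ± 0.20 in siELMO1 cells (adjusted p = 0.000345). A gene annotated across both APOBEC3C and APOBEC3D on the same strand, ENSG00000284554, held 3 to 168 counts at 0 h and 115 to 379 counts at 24 h, next to 189 to 658 counts for APOBEC3D, so the split of reads between them is uncertain.

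APOBEC3H was close to the limit of detection, with 15 to 108 counts per library. Its CPM at 0 h was 0.886, 0.554 and 0.715 in Mock, 0.224, 0.345 and 0.434 in siNT and 0.503, 0.928 and 0.359 in siELMO1 cells. At 24 h it was 1.48, 1.49 and 1.25 in Mock, 1.03, 0.642 and 0.857 in siNT, and 1.64, 0.683 and 0.938 in siELMO1 cells. The groups overlapped in siELMO1 cells and not in the others. The log2 fold change was 0.97 ± 0.38 in Mock (adjusted p = 0.0344), 1.33 ± 0.40 in siNT (adjusted p = 0.00988) and 0.89 ± 0.39 in siELMO1 cells, where it did not pass (adjusted p = 0.0636). The Mock call was lost (log2 fold change 0.78 to 0.93, adjusted p 0.0758 to 0.134) without Mock 0 h replicate 2 or 3 or Mock 24 h replicate 1 or 2. The siELMO1 difference passed without siELMO1 0 h replicate 2 (1.32, adjusted p = 0.0137) or siELMO1 24 h replicate 2 (1.13, adjusted p = 0.0277) and was 0.46 (adjusted p = 0.369) without siELMO1 24 h replicate 1. The Mock call was also lost with library totals (0.85, adjusted p = 0.0593) or every gene tested (0.95, adjusted p = 0.0774). The siELMO1 difference passed by DESeq2 (0.90, adjusted p = 0.046) and limma (0.93, adjusted p = 0.0453).

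APOBEC3A, a monocyte-associated single-domain enzyme, was under the count limit, with 0 to 60 counts per library. It held 0.519, 0.810 and 0.766 CPM in Mock, 0.701, 0.952 and 0.777 in siNT, and 0.258, 0.251 and 0 in siELMO1 cells at 0 h, where a count of 0 allows up to 0.0598 CPM. At 24 h it held 0.552, 0.960 and 0.838 CPM in Mock, 0.534, 0.625 and 0.892 in siNT, and 0.515, 0.590 and 0.399 in siELMO1 cells. The siELMO1 libraries at 0 h lay below all 15 others. When every gene with at least 1 count was tested (37970 genes), APOBEC3A was lower in siELMO1 than in Mock cells at 0 h by a log2 fold change of -2.05 ± 0.57 (adjusted p = 0.0121) and lower than in siNT cells by -2.24 ± 0.57 (adjusted p = 0.00431). APOBEC3A and APOBEC3B are close in sequence, and how reads were divided between them is uncertain at these counts.

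APOBEC3C was the one tested APOBEC3 gene that was not called higher after poly(I:C) in any transfection. Its CPM at 0 h was 138, 141 and 148 in Mock, 163, 165 and 162 in siNT and 134, 169 and 163 in siELMO1 cells. At 24 h it was 126, 131 and 124 in Mock, 161, 161 and 150 in siNT and 135, 142 and 124 in siELMO1 cells. The 0 h and 24 h values were within a narrow range in every transfection and overlapped in siELMO1 cells. The log2 fold change was -0.17 ± 0.07 in Mock (adjusted p = 0.0464), -0.06 ± 0.07 in siNT (adjusted p = 0.523) and -0.21 ± 0.07 in siELMO1 cells (adjusted p = 0.0166). The Mock call was lost (-0.19 to -0.15, adjusted p 0.0528 to 0.12) without Mock 0 h replicate 3, any siNT 0 h library, Mock 24 h replicate 2 or 3, siNT 24 h replicate 1 or 2, or siELMO1 24 h replicate 1. It was also lost with edgeR's own expression filter (-0.16, adjusted p = 0.0618). The siELMO1 call was lost (-0.17 to -0.14, adjusted p 0.071 to 0.104) without siELMO1 0 h replicate 2 or 3 or siELMO1 24 h replicate 3. It was also lost with every gene tested (-0.18, adjusted p = 0.057) or with only the libraries compared (-0.20, adjusted p = 0.104).

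The make-up of APOBEC3 RNA therefore shifted, as the stacked shares of TPM show. APOBEC3C held 59.5% ± 1.18 (SD, n = 3) of the TPM of the 7 APOBEC3 genes in Mock cells at 0 h and 37.0% ± 1.41 at 24 h. The APOBEC3G share went from 3.23% ± 0.395 to 20.5% ± 1.00, and that of APOBEC3F from 3.52% ± 0.429 to 11.5% ± 0.557. In siNT cells APOBEC3C went from 60.3% ± 0.713 to 49.5% ± 4.90 and APOBEC3G from 3.69% ± 0.326 to 16.7% ± 2.95. The 7 genes summed to 222 ± 6.17 TPM at 0 h and 294 ± 6.35 TPM at 24 h in Mock cells, to 234 ± 1.70 and 275 ± 19.3 TPM in siNT cells, and to 175 ± 12.6 and 264 ± 3.83 TPM in siELMO1 cells. Transcript estimates gave nearly all APOBEC3C counts to 1 transcript, APOBEC3C-201 with 99.4% to 100.0%, and most APOBEC3F and APOBEC3G counts to APOBEC3F-201 (94.0% to 98.2%) and APOBEC3G-201 (81.1% to 89.5%).

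**Figure D2:**
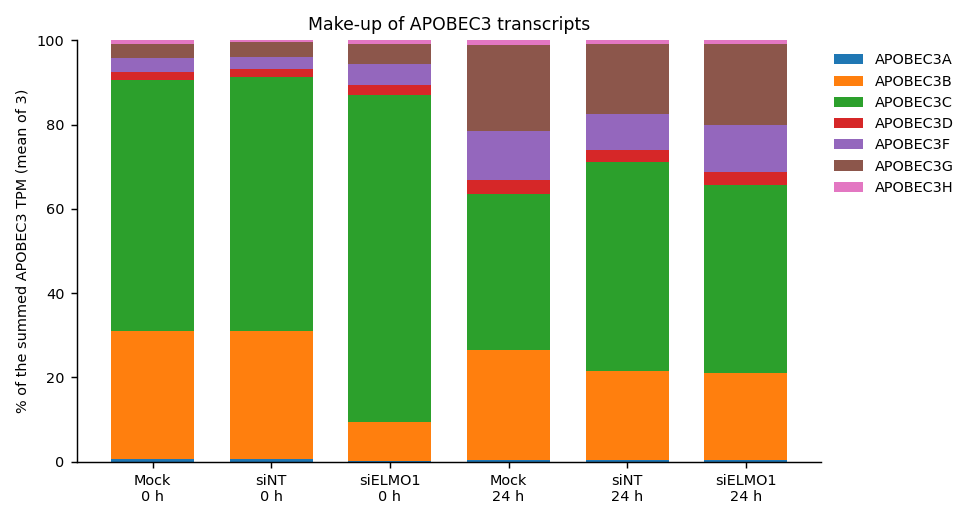
Mean share of each APOBEC3 gene in the summed TPM of the 7 genes (vertical axis, percent) in each of the 6 conditions (3 libraries each). The APOBEC3C share falls and the APOBEC3G and APOBEC3F shares grow from 0 h to 24 h, and the APOBEC3B share is 9.22% in siELMO1 cells at 0 h against 30.5% in Mock.

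APOBEC3B, a nuclear deaminase linked to mutations in cancer genomes and known to be expressed in cycling cells, was the tested member that differed most between siELMO1 and the other cells. At 0 h it had 45.2, 47.0 and 45.9 CPM in Mock, 50.1, 53.9 and 49.5 in siNT and 11.0, 11.8 and 12.1 in siELMO1 cells. At 24 h it had 51.0, 55.8 and 57.9 CPM in Mock, 42.1, 39.5 and 47.8 in siNT, and 39.1, 40.4 and 38.7 in siELMO1 cells. The 3 siELMO1 libraries at 0 h lay far below all others, with no overlap. APOBEC3B was 3.96-fold lower in siELMO1 than in Mock cells at 0 h (log2 fold change -1.99 ± 0.07, adjusted p = 2.78e-13) and 4.40-fold lower than in siNT cells (-2.14 ± 0.07, adjusted p = 8.90e-14). The mitochondrial share of these 3 libraries was 1.86%, 4.02% and 3.95%, and its part in the result was not tested.

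The response of APOBEC3B to poly(I:C) differed between transfections in size and in direction. It was 3.39-fold higher at 24 h in siELMO1 cells (log2 fold change 1.76 ± 0.07, adjusted p = 6.46e-13), slightly higher in Mock cells (0.25 ± 0.07, adjusted p = 0.00292) and slightly lower in siNT cells (-0.25 ± 0.07, adjusted p = 0.00464). The Mock call was lost with counts scaled by library totals alone (0.13, adjusted p = 0.0852). The difference of responses was 1.51 ± 0.10 between siELMO1 and Mock (adjusted p = 5.98e-09), 2.01 ± 0.10 between siELMO1 and siNT (adjusted p = 1.08e-10) and -0.50 ± 0.09 between siNT and Mock cells (adjusted p = 0.000534). The first 2 of these differences share the siELMO1 libraries. At 24 h the level in siELMO1 cells was lower than in Mock (log2 fold change -0.48 ± 0.07, adjusted p = 1.38e-05), with no difference called from siNT (-0.13 ± 0.07, adjusted p = 0.109). The siELMO1 and siNT libraries differed enough at 24 h for a call (-0.19, adjusted p = 0.0314) without siNT 24 h replicate 2 or with library totals (-0.18, adjusted p = 0.0309), and less (-0.05, adjusted p = 0.532) without siNT 24 h replicate 3.

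Values of cell cycle genes in the same libraries are given beside those of APOBEC3B, and their part in its levels was not tested. MYBL2, a transcription factor that drives mitotic genes, had a mean of 91.0 CPM in Mock, 57.1 in siNT and 25.4 in siELMO1 cells at 0 h, and 66.7, 36.1 and 53.9 CPM at 24 h. FOXM1, another mitotic transcription factor, had 210, 174 and 60.7 CPM at 0 h and 169, 115 and 101 CPM at 24 h. Both were lower in siELMO1 than in Mock cells at 0 h (log2 fold change -1.84 ± 0.10 and -1.79 ± 0.08, adjusted p = 2.82e-11 and 4.2e-12). Both rose with poly(I:C) in siELMO1 cells (1.09 ± 0.09 and 0.73 ± 0.08, adjusted p = 2.48e-08 and 4.22e-07) while they fell in Mock cells (-0.45 ± 0.09 and -0.31 ± 0.08, adjusted p = 0.000386 and 0.00212). Unlike APOBEC3B, MYBL2 and FOXM1 were also lower in siNT than in Mock libraries at 0 h, by 1.59-fold and 1.21-fold. In siELMO1 against siNT cells at 24 h, MYBL2 was higher (0.58 ± 0.09, adjusted p = 5.16e-05). No difference was called there for FOXM1 (-0.19 ± 0.08, adjusted p = 0.0507) or, as given above, for APOBEC3B (-0.13). A list of 14 cell cycle genes held subunits of the DREAM and MYB-MuvB complexes and other factors such as E2F1. The complexes repress and activate cell cycle genes. Of all genes, 27.9% were higher and 22.4% lower in siELMO1 than in Mock cells at 0 h. Of the 14, 1 was higher and 10 were lower there, with a median log2 fold change of -0.73 against 0.04 for all genes. Against siNT, 2 were higher and 9 lower, where 31.3% of all genes were higher and 31.3% lower (median -0.73 against 0.00093). Between siNT and Mock at 0 h, 27.6% of all genes were higher and 24.0% lower in siNT cells. Of the 14, 1 was higher and 8 were lower there (median -0.32 against 0.028 for all genes). With poly(I:C), 3 rose and 8 fell in Mock (median -0.27), 1 rose and 9 fell in siNT (-0.31), and 8 rose and 2 fell in siELMO1 cells (0.36), where the medians of all genes were 0.0066, 0.014 and -3.55e-05 and the shares called higher and lower were those given above for poly(I:C). E2F1 and RBL1 were among them, with log2 fold changes of -0.73 ± 0.10 and -0.58 ± 0.05 in Mock (adjusted p = 9.88e-06 and 2.26e-08) and 0.78 ± 0.11 and 0.38 ± 0.05 in siELMO1 cells (adjusted p = 1.06e-05 and 8.46e-06).

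Across the 18 libraries, which come from only 6 conditions, the genes whose log2 CPM was most like that of APOBEC3B were POLQ (Pearson's r = 0.991), ESPL1 (0.985) and HASPIN (0.983). The correlation of APOBEC3B with ADAR over the same libraries was 0.406, whereas that of APOBEC3F with ADAR and of APOBEC3G with ADAR was 0.991 for each.

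**Figure D3:**
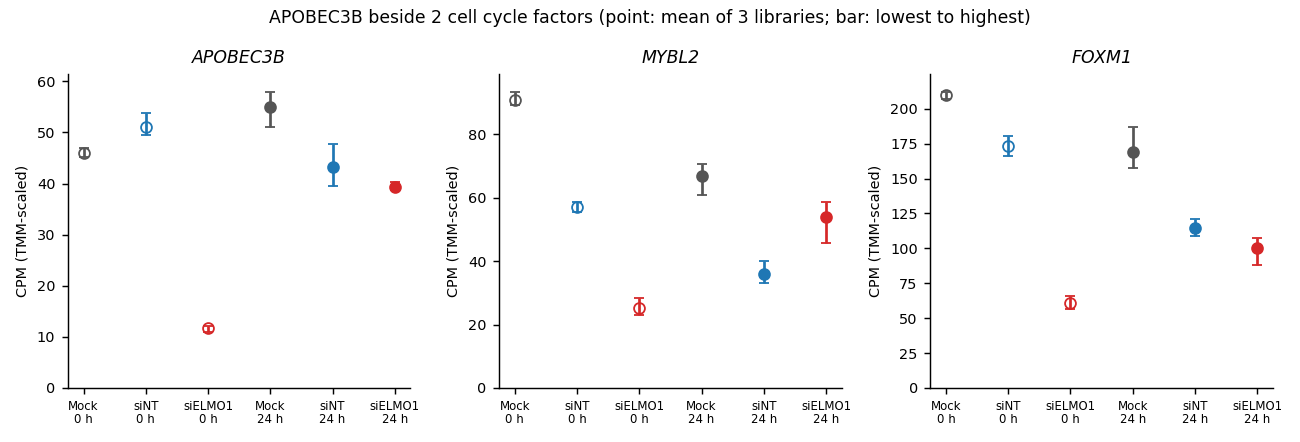
APOBEC3B, MYBL2 and FOXM1 in CPM (TMM-scaled, vertical axis) in the 6 conditions; points are means of 3 libraries, bars run from the lowest to the highest library, and open points are 0 h. All 3 genes are lowest in siELMO1 cells at 0 h and are higher there at 24 h, while MYBL2 and FOXM1 are lower at 24 h in Mock and siNT cells.

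ADAR was the most abundant gene of the set at 24 h, with 388 ± 8.36 TPM in Mock, 309 ± 21.7 in siNT and 357 ± 14.2 in siELMO1 cells. Its 0 h libraries had 310, 308 and 298 CPM in Mock, 303, 278 and 287 in siNT and 281, 294 and 300 in siELMO1 cells. Its 24 h libraries had 1091, 1140 and 1145 CPM in Mock, 874, 857 and 972 in siNT, and 979, 982 and 1031 in siELMO1 cells. No 24 h library came near the 0 h range, and Mock libraries were the highest. The log2 fold change was 1.88 ± 0.05 in Mock (adjusted p = 2.12e-15), 1.64 ± 0.05 in siNT (adjusted p = 2.74e-14) and 1.77 ± 0.05 in siELMO1 cells (adjusted p = 5.75e-15), or 3.68-fold, 3.12-fold and 3.42-fold. The genes most like ADAR across the 18 libraries were IFIT2, ZC3H7B and IRF7, each with r = 0.998.

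Transcripts were examined to see which start sites of ADAR carried this rise. ADAR lies on the minus strand of chromosome 1 at 154581695 to 154628013 (GRCh38) with 33 annotated transcripts, of which 13 start within 1 kb of ADAR-202 (inner starts), 16 start upstream of them at the outer promoter region, and 4 start further inside the gene. The 30 bases just before each start are shown because the interferon-stimulated response element (ISRE) differs between them, with its match in capitals and the sequence read 5′ to 3′ on the minus strand.
ADAR inner start (ADAR-202), chr1:154608187-154608216: aaggctttccgaggaaacGAAAGCGAAAtt
ADAR outer start (RefSeq), chr1:154627998-154628027: tggttcttcctcccacgcccggcgcgccaa
The ISRE was searched as GAAA, any 2 bases and GAAA again, on both strands of windows of 300 bases, 250 before to 50 after a start, and its match lay 12 to 3 bases before the inner start. Of all 35116 RefSeq start windows of this length, 3.57% held it. Of 9 windows of ADAR, ADARB1 and APOBEC3H examined, the window of the ADAR-202 start was the one with a match. That window was added from the genome at the annotated start, while the others were RefSeq start windows. The other APOBEC3 genes, APOBEC3D, APOBEC3F and APOBEC3G among them, had no RefSeq window and were not searched. The windows without a match included that of the ADAR-220 start, 611 bases upstream of ADAR-202 and grouped here with the inner starts. The gamma-activated site searched as TTCNNNGAA, found in 7.66% of all windows, was in none of the 9. Several longer ADAR transcripts start upstream of the ADAR-202 start, so the matched bases are also inside their first exon.

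Inner-start transcripts summed to 88.9, 72.9 and 69.7 TPM in Mock, 66.0, 64.5 and 70.0 TPM in siNT and 69.3, 41.7 and 56.3 TPM in siELMO1 cells at 0 h. At 24 h they summed to 335, 334 and 344 TPM in Mock, 254, 210 and 278 TPM in siNT, and 281, 286 and 287 TPM in siELMO1 cells, without overlap with 0 h. The means were 4.38-fold, 3.70-fold and 5.10-fold higher at 24 h. These sums also hold transcripts of the p110 form and transcripts predicted to be degraded or annotated with a retained intron. Transcripts that encode p150, all from inner starts, were 4.30-fold, 2.52-fold and 6.85-fold higher in summed TPM. Outer-start transcripts summed to 23.9, 44.2 and 39.4 TPM in Mock, 38.7, 29.5 and 28.4 TPM in siNT and 31.8, 61.0 and 47.5 TPM in siELMO1 cells at 0 h. At 24 h they summed to 41.8, 44.8 and 48.2 TPM in Mock, 45.8, 76.5 and 50.8 TPM in siNT, and 59.5, 61.7 and 78.4 TPM in siELMO1 cells, which is 1.25-fold, 1.79-fold and 1.42-fold. Outer sums overlapped between 0 h and 24 h in Mock and siELMO1 cells, and in siNT cells every 24 h sum was above every 0 h sum.

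The share of inner starts among inner and outer TPM went from 68.3% ± 9.15 (SD, n = 3) to 88.3% ± 0.609 in Mock, from 67.6% ± 4.14 to 80.9% ± 6.56 in siNT and from 54.5% ± 14.0 to 81.1% ± 2.21 in siELMO1 cells. The 0 h and 24 h libraries did not overlap in any transfection. The rise averaged 20.0 percentage points, with p = 0.00025 in an exact two-sided permutation test within transfections, the smallest p its 8000 permutations can give; this grouping by start was chosen after seeing the data. The grouping by coding sequence gave the share of transcripts with the p150 start codon among coding transcripts of either form, which went from 57.9% ± 7.79 to 79.8% ± 2.55 in Mock, from 61.9% ± 3.05 to 64.8% ± 12.0 in siNT and from 39.6% ± 14.3 to 74.4% ± 3.02 in siELMO1 cells. Its rise averaged 19.9 points (exact permutation p = 0.002), but was 2.87 points in siNT cells, where 0 h and 24 h libraries overlapped. With all ADAR transcripts as the denominator the share went up by 11.4 points in Mock and 28.5 points in siELMO1 cells but down in siNT cells, from 44.4% to 36.4%, a mean difference of 10.6 points (exact permutation p = 0.0615).

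**Figure D4:**
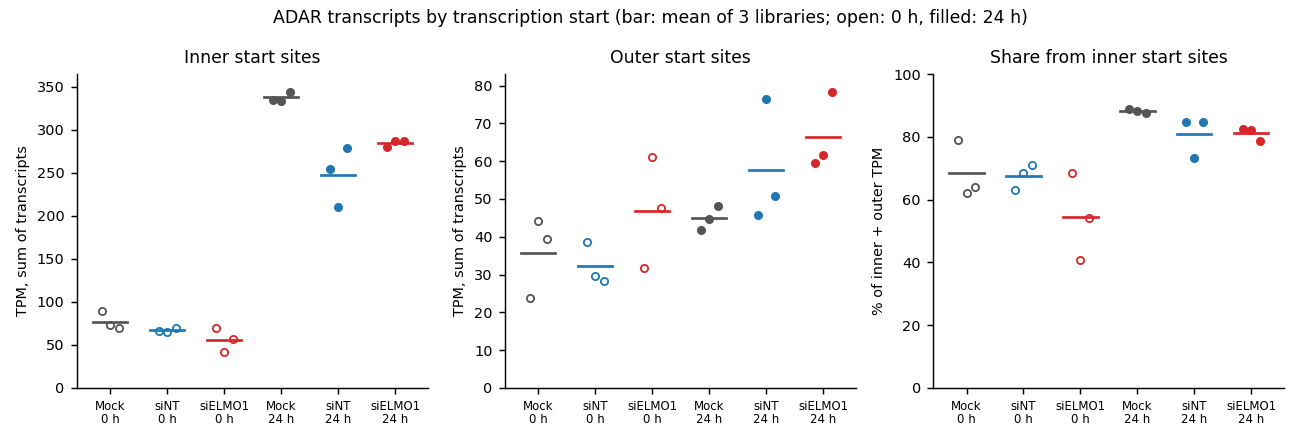
ADAR transcripts from inner starts (left) and outer starts (centre) in summed TPM, and the inner share of both in percent (right), by condition; points are libraries, open at 0 h and filled at 24 h, and bars are means of 3. Inner-start TPM is 210 or more in every 24 h library and under 90 in every 0 h library, while outer-start TPM lies between 23.9 and 78.4. In siNT cells outer-start TPM is higher in every 24 h library than in every 0 h library.

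Of 24 ADAR transcripts tested, 6 were called higher in Mock, 5 in siNT and 6 in siELMO1 cells and 0 lower in edgeR's test, where 4.98%, 3.67% and 4.78% of 54867 transcripts were called higher and 4.78%, 3.21% and 3.39% lower. At an unadjusted p under 0.05, 1 was lower in Mock (ADAR-201), 0 in siNT and 1 in siELMO1 cells (ADAR-231). ADAR-208, an inner-start transcript of 15 exons that encodes the p150 form of 1200 residues, had 106, 146 and 88.9 CPM in Mock, 125, 133 and 112 in siNT and 104, 78.8 and 56.1 in siELMO1 cells at 0 h. At 24 h it had 556, 558 and 534 CPM in Mock, 350, 222 and 241 in siNT, and 447, 655 and 531 in siELMO1 cells. It rose in each transfection, least in siNT cells, with log2 fold changes of 2.27 ± 0.25 (adjusted p = 2.48e-05), 1.13 ± 0.24 (adjusted p = 0.00900) and 2.77 ± 0.25 (adjusted p = 5.99e-06). ADAR-202, the p150 transcript of 1226 residues whose start has the ISRE match, was called in none of the 3 transfections. Its mean CPM at 0 h and 24 h was 14.9 and 20.3 in Mock, 1.56 and 31.8 in siNT and 2.51 and 11.9 in siELMO1 cells. The log2 fold changes were 0.45 ± 1.19 (adjusted p = 0.928), 4.35 ± 1.37 (adjusted p = 0.0835) and 2.25 ± 1.25 (adjusted p = 0.354). The other calls were not all for long or inner forms. ADAR-211 starts at the inner site and encodes 931 residues, the p110 form, and averaged 3.85 CPM at 0 h and 40.6 CPM at 24 h in Mock cells (adjusted p = 0.0109). ADAR-225 encodes the same 931 residues from an outer start and went from 12.5 to 65.8 CPM in Mock (adjusted p = 2.58e-06), from 11.7 to 51.4 CPM in siNT (adjusted p = 1.24e-05) and from 12.1 to 63.7 CPM in siELMO1 cells (adjusted p = 3.29e-06). The remaining called transcripts, ADAR-203, ADAR-210 and ADAR-230, are annotated with a retained intron. Assignment between near-identical transcripts was unstable, since ADAR-229, an inner-start transcript predicted to be degraded, held 155, 1.91 and 90.7 CPM in the 3 siELMO1 libraries at 24 h.

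ADARB1, whose protein edits glutamate receptor RNA in the brain, did not rise. It had 33.6, 35.9 and 33.3 CPM in Mock, 27.2, 23.7 and 23.9 in siNT and 31.4, 29.3 and 31.1 in siELMO1 cells at 0 h. At 24 h all 9 libraries were between 21.5 and 25.3 CPM. The 0 h libraries were above this range in Mock and siELMO1 cells and overlapped it in siNT cells. It fell in Mock (log2 fold change -0.57 ± 0.06, adjusted p = 4.36e-07) and in siELMO1 cells (-0.44 ± 0.06, adjusted p = 1.37e-05), and in siNT cells the value was -0.04 ± 0.06 (adjusted p = 0.590). At 0 h it was lower in siNT than in Mock cells (-0.46 ± 0.06, adjusted p = 8.98e-06), lower in siELMO1 than in Mock cells by less (-0.16 ± 0.06, adjusted p = 0.0393) and higher in siELMO1 than in siNT cells (0.29 ± 0.06, adjusted p = 0.000535). The call of siELMO1 against Mock was lost (-0.17 to -0.13, adjusted p 0.0603 to 0.139) without Mock 0 h replicate 2 or siELMO1 0 h replicate 2 or 3. It was also lost with edgeR's own filter (-0.17, adjusted p = 0.0569) and with every gene tested (-0.20, adjusted p = 0.0504). The pseudogene SSR4P1 lies within ADARB1 on the other strand with 30 to 89 counts, against 1075 to 2656 for ADARB1.

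**Figure D5:**
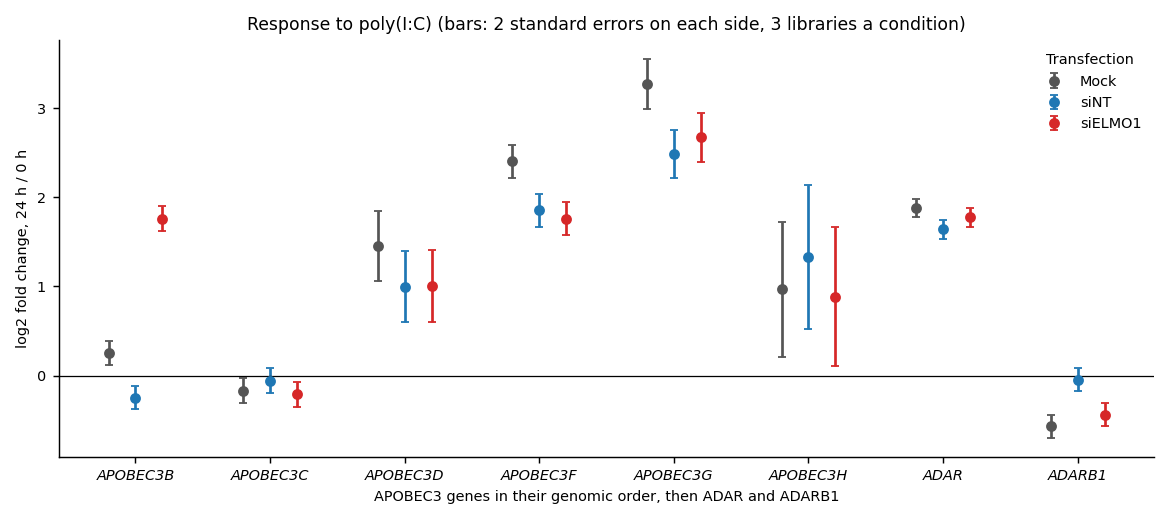
Log2 fold change from 0 h to 24 h of poly(I:C) (vertical axis) of the 8 tested genes in Mock, siNT and siELMO1 cells; points are edgeR estimates from 3 libraries a condition and bars span 2 standard errors on each side. APOBEC3G, APOBEC3F, ADAR and APOBEC3D are above 0 in all 3 transfections, and APOBEC3B departs from 0 most in siELMO1 cells.

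The responses were then compared between transfections. Between siNT and Mock cells 5 members differed in response, where 31.0% of all genes tested did, between siELMO1 and Mock 3 did (28.3%), and between siELMO1 and siNT 2 did (34.5%). APOBEC3F responded less in siNT than in Mock cells (difference -0.55 ± 0.13, adjusted p = 0.00313) and less in siELMO1 than in Mock cells (-0.64 ± 0.13, adjusted p = 0.00112). The same held for APOBEC3G (-0.78 ± 0.19, adjusted p = 0.00371, and -0.60 ± 0.19, adjusted p = 0.0245). ADAR responded less in siNT than in Mock cells by a smaller margin (-0.24 ± 0.07, adjusted p = 0.0144). The ADARB1 response was less negative in siNT than in Mock cells (difference 0.52 ± 0.09, adjusted p = 0.000224) and more negative in siELMO1 than in siNT cells (-0.39 ± 0.09, adjusted p = 0.00229). Both comparisons with Mock use the same Mock libraries. For APOBEC3G, the call of siELMO1 against Mock was lost (-0.54 to -0.53, adjusted p 0.056 to 0.0759) without Mock 0 h replicate 2 or 3, siELMO1 0 h replicate 2, Mock 24 h replicate 3 or siELMO1 24 h replicate 1. It was also lost by limma (-0.60, adjusted p = 0.0809) and with every gene tested (-0.55, adjusted p = 0.0687). For ADAR, that of siNT against Mock was lost without Mock 0 h replicate 3 (-0.20, adjusted p = 0.0669), with library totals (-0.16, adjusted p = 0.0943) and with every gene tested (-0.23, adjusted p = 0.0526).

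At 24 h several induced editors were lower in siNT than in Mock cells, and the part of the death of siNT cells in this was not tested. Against Mock, 1 of the 8 members was higher and 4 were lower in siNT cells, where 25.2% of all genes were higher and 24.9% lower. APOBEC3C was higher (0.31 ± 0.07, adjusted p = 0.00130), and APOBEC3F (-0.60 ± 0.09, adjusted p = 2.05e-05), APOBEC3G (-0.40 ± 0.12, adjusted p = 0.0114), APOBEC3B (-0.35 ± 0.07, adjusted p = 0.000302) and ADAR (-0.32 ± 0.05, adjusted p = 4.12e-05) were lower. Between siELMO1 and Mock, 0 members were higher and 3 lower against 21.6% and 22.0% of all genes, namely APOBEC3B as given above, APOBEC3F (-0.45 ± 0.09, adjusted p = 0.000394) and ADAR (-0.17 ± 0.05, adjusted p = 0.00903). At an unadjusted p under 0.05 in edgeR, and by DESeq2 and limma, 0 were higher as well. Between siELMO1 and siNT, ADAR was higher (0.15 ± 0.05, adjusted p = 0.0199) and APOBEC3C lower (-0.23 ± 0.07, adjusted p = 0.00960), which is 1 member each way against 26.0% and 26.5% of all genes.

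Single libraries decided several of these calls. Without siNT 24 h replicate 3, which had the highest APOBEC3B, APOBEC3D, APOBEC3F, APOBEC3G and ADAR of its group, APOBEC3F (0.27, adjusted p = 0.00870) and APOBEC3G (0.36, adjusted p = 0.00419) were also higher in siELMO1 than in siNT cells at 24 h, APOBEC3D was lower in siNT than in Mock (-0.61, adjusted p = 0.0143) and APOBEC3G lower in siELMO1 than in Mock (-0.26, adjusted p = 0.0184). With all libraries APOBEC3D differed by -0.37 ± 0.19 (adjusted p = 0.127), and without siNT 24 h replicate 1 by -0.15 (adjusted p = 0.516). The APOBEC3G difference of siELMO1 and Mock also passed by limma (-0.27, adjusted p = 0.0489) and with only the libraries compared (-0.25, adjusted p = 0.024). Without siNT 24 h replicate 3 the responses of APOBEC3G (0.40, adjusted p = 0.0276) and ADAR (0.19, adjusted p = 0.0259) also differed between siELMO1 and siNT cells, and that of APOBEC3D between siNT and Mock cells (-0.70, adjusted p = 0.0487). The ADAR difference between siELMO1 and siNT at 24 h was lost without siNT replicate 1 (0.12, adjusted p = 0.0815), siNT replicate 2 (0.11, adjusted p = 0.104) or siELMO1 replicate 3 (0.12, adjusted p = 0.076). It was also lost with library totals (0.10, adjusted p = 0.0911) or with only the libraries compared (0.15, adjusted p = 0.0613). The APOBEC3G difference between siNT and Mock at 24 h was lost without siNT replicate 1 (-0.31, adjusted p = 0.0685) or 2 (-0.31, adjusted p = 0.0698), and that of APOBEC3C between siELMO1 and siNT without siELMO1 replicate 3 (-0.18, adjusted p = 0.0559).

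Before poly(I:C), the transfections were compared in the same way. Between siNT and Mock 2 members were higher and 2 lower (27.6% and 24.0% of all genes), with APOBEC3C (0.20 ± 0.07, adjusted p = 0.0239) and APOBEC3G (0.38 ± 0.14, adjusted p = 0.0309) higher, and APOBEC3H (-1.10 ± 0.40, adjusted p = 0.0290) and ADARB1 lower. Between siELMO1 and Mock 0 members were higher and 2 lower (27.9% and 22.4% of all genes), APOBEC3B and ADARB1. In the same comparison 1 member was higher at an unadjusted p under 0.05 in edgeR, 1 by DESeq2 and 0 by limma. In edgeR that member was APOBEC3G (0.34 ± 0.14, adjusted p = 0.0573 in edgeR). Between siELMO1 and siNT 2 were higher and 1 lower (31.3% and 31.3% of all genes), with APOBEC3F (0.24 ± 0.09, adjusted p = 0.0336) and ADARB1 higher. ADAR did not differ by a call in any of the 3, its log2 fold changes lying between -0.08 and 0.01 with an SE of 0.05. It was called lower in siNT than in Mock cells with library totals (-0.14, adjusted p = 0.0262) or with only the libraries compared (-0.11, adjusted p = 0.0185), and lower in siELMO1 than in Mock cells with library totals (-0.15, adjusted p = 0.0184). APOBEC3B was not called between siNT and Mock (0.15 ± 0.07, adjusted p = 0.0634). It was called higher in siNT by limma (0.15, adjusted p = 0.0494) and with only the libraries compared (0.12, adjusted p = 0.0321). The same held without siNT 24 h replicate 2 or 3 (0.15, adjusted p 0.0315 to 0.0469). The calls for APOBEC3C (0.14 to 0.19, adjusted p 0.0605 to 0.15) and APOBEC3G (0.30 to 0.35, adjusted p 0.0568 to 0.145) between siNT and Mock were each lost without one of several libraries, namely Mock 0 h replicate 1 or 2, siNT 0 h replicate 2 or Mock 24 h replicate 1 for APOBEC3C, and Mock 0 h replicate 2 or 3, siNT 0 h replicate 1 or 3 or Mock 24 h replicate 1 for APOBEC3G. Both were also lost with library totals (0.14 and 0.32, adjusted p = 0.0696 and 0.0728) and with every gene tested (0.18 and 0.36, adjusted p = 0.0622 and 0.0742). That of APOBEC3G was lost by limma (0.39, adjusted p = 0.141). That of APOBEC3H was lost (-1.12 to -0.88, adjusted p 0.0606 to 0.117) without Mock 0 h replicate 1 or siNT 0 h replicate 1 or 2, and that of APOBEC3F (0.16 to 0.26, adjusted p 0.0502 to 0.171) without siNT 0 h replicate 1 or 3 or siELMO1 0 h replicate 2 or 3. With every gene tested both were lost (-1.12 and 0.22, adjusted p = 0.0549 and 0.0937). That of APOBEC3F was lost by limma (0.22, adjusted p = 0.12) and with only the libraries compared (0.25, adjusted p = 0.0559). Without siNT 24 h replicate 3, APOBEC3F (0.19, adjusted p = 0.043) and APOBEC3G (0.34, adjusted p = 0.00736) were called higher in siELMO1 than in Mock cells, and APOBEC3G also without siELMO1 0 h replicate 3 (0.42, adjusted p = 0.0354) or siNT 24 h replicate 1 or 2 (0.34, adjusted p 0.0457 to 0.047). Between siELMO1 and Mock, APOBEC3C (0.22, adjusted p = 0.00234) and APOBEC3F (0.26, adjusted p = 0.0414) were called higher without siELMO1 0 h replicate 1, the library with the lowest APOBEC3C of the 3.

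The pathways around the editors moved as follows with poly(I:C). Of 12 interferon signalling genes, 11 were higher and 1 lower in Mock (median log2 fold change 2.97), 10 higher in siNT (2.27) and 12 higher in siELMO1 cells (2.27). Of all genes, 30.7% were called higher and 29.6% lower in Mock, 28.6% and 25.2% in siNT, and 28.0% and 26.9% in siELMO1 cells. The medians of all genes were 0.0066, 0.014 and -3.55e-05. IFNB1, the type I interferon, had 0 counts in 8 of 9 libraries at 0 h and 3 in the other, and averaged 23.0 CPM in Mock, 1.68 in siNT and 7.64 in siELMO1 cells at 24 h. IFNL1, a type III interferon, was at 0 at 0 h and averaged 7.87, 0.635 and 2.80 CPM at 24 h. STAT2 and IRF9, subunits of the factor that binds ISREs, rose in all 3 transfections, STAT2 by 3.67 ± 0.09, 2.96 ± 0.08 and 2.99 ± 0.08 on the log2 scale and IRF9 by 3.29 ± 0.17, 2.93 ± 0.17 and 1.88 ± 0.17. At 24 h in siNT against Mock cells, IFNB1 differed by -3.78 ± 0.32 and STAT2 by -0.51 ± 0.08 (adjusted p = 4.91e-07 and 2.88e-05), beside -0.60 for APOBEC3F and -0.32 for ADAR, while the IRF9 value was 0.06 ± 0.16 (adjusted p = 0.771). The IRF9 level in siELMO1 cells at 24 h, 49.9 CPM, was lower than the 93.7 CPM of Mock, while ADAR in the same cells was 998 against 1125 CPM. In siELMO1 against Mock cells at 24 h, STAT2 differed by 0.0034 ± 0.076 (adjusted p = 0.974) and IFNB1 by -1.60 ± 0.29 (adjusted p = 0.000506). APOBEC3F (-0.45) and ADAR (-0.17) were called lower there. The part of these signalling genes in the levels of the editors was not tested.

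Of 11 genes of double-stranded RNA sensing, the pathway that ADAR editing restrains, 10 were higher and 1 lower in Mock (median log2 fold change 4.76), 10 higher in siNT (3.67) and 10 higher in siELMO1 cells (4.30). OAS2, which makes the activator of RNase L, averaged 6.00 CPM at 0 h and 1607 CPM at 24 h in Mock cells, and ZBP1, a sensor of Z-form RNA, had 0 counts in all 0 h libraries and averaged 3.31, 2.08 and 3.25 CPM at 24 h. Of 9 tested genes of uracil repair and reverse-transcription restriction, which act on the products and targets of APOBEC3 enzymes, 4 were higher and 3 lower in Mock (median 0.16), 3 higher and 4 lower in siNT (-0.15) and 7 higher and 2 lower in siELMO1 cells (0.34). The shares of all genes called higher and lower were 30.7% and 29.6%, 28.6% and 25.2%, and 28.0% and 26.9%. SAMHD1, which depletes deoxynucleotides, rose by 2.83 ± 0.09, 2.12 ± 0.09 and 3.76 ± 0.10 on the log2 scale, and the DNA exonuclease TREX1 by 2.75 ± 0.46, 2.87 ± 0.47 and 2.90 ± 0.48. Of 6 tested genes of 15 other deaminases and cofactors, 1 was lower in Mock (median 0.0083), 1 higher and 1 lower in siNT (-0.018), and 3 higher and 1 lower in siELMO1 cells (0.34). ADA, the deaminase of free adenosine, fell in all 3 (-0.94 ± 0.05, -0.99 ± 0.05 and -1.10 ± 0.05). Setting genes with 0 counts at 0 h, namely IFNB1, IFNL1 and ZBP1, to the fold that 3 counts a library allow left the list medians as given.

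Genes most like the other members in log2 CPM over the 18 libraries were HLA-C (0.997), TNFSF10 (0.996) and HLA-B (0.996) for APOBEC3G, and OPTN (0.994), NMI (0.993) and RELB (0.993) for APOBEC3F. For APOBEC3D they were PCLO (0.954), NMI (0.953) and CSAG2 (0.948), and for ADARB1 they were PPIP5K2 (0.959), PAGR1 (0.950) and MYO5A (0.948). Those for APOBEC3C were UBE2L3 (0.934), GPRASP3 (0.929) and COX4I1 (0.923), and those for APOBEC3H, at its low counts, were MRM1 (0.885), GPR176 (0.871) and STARD10 (0.867). The 7 APOBEC3 genes lie in one cluster on the plus strand of chromosome 22 (GRCh38), from APOBEC3A at 38952741 to the end of APOBEC3H at 39104067, and ADARB1 is on chromosome 21 at 45073853 to 45226560. Members that rose and members that did not were neighbours in the cluster, with APOBEC3C ending at 39020352 and APOBEC3D starting at 39021113.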

How the data were processed

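Stranded poly(A) RNA libraries of EA.hy926 cells were sequenced by the authors, and reads were aligned to GRCh38 and counted per gene and transcript with STAR and StringTie, per the labels and methods; versions and the counting strand are not given in the sources used here. The deposited values are estimated counts that are not normalized, with 40374756 to 73850946 per library. Here they were fitted, all 18 libraries together, with edgeR 4.0.16 (R 4.3.3), TMM factors, quasi-likelihood tests of 12 comparisons and Benjamini-Hochberg adjustment over the 15167 genes (54867 transcripts) with at least 100 counts in total and at least 1 CPM in 1 library. The biological coefficient of variation was 12.2%. Calls were made at an adjusted p under 0.05. TPM were computed from transcript counts and annotated lengths, and the ADAR share was tested by exact permutation within transfections. Sequences and annotation came from the GRCh38 genome, GENCODE and RefSeq tables. Alternatives were DESeq2 1.42.0, limma 3.58.1, other scalings and filters, fewer libraries and each library left out. The script was tested on simulated data. Members and lists were chosen with earlier results of these data known. Named genes were all 9 members, ELMO1, STAT2, IRF9, IFNB1, MYBL2 and FOXM1, the 2 genes of each list with the largest change in Mock cells among those called, and the 3 genes most like each member by Pearson's r on log2(CPM + 0.5); ENSG00000284554, SSR4P1 and the ADAR transcripts were named after their values were seen. Some items that the rule or the lists cover are not reported here. Replicate numbers were the same in all conditions. Deviations from condition means of same-numbered libraries correlated over 0.1 in all 3 pairs only between Mock and siNT at 24 h (r 0.215, 0.278 and 0.326 over 9640 genes), with a median r of 0.0448 over 45 pairs.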

Additional observations from a re-analysis of the deposited data

Results flagged for a closer look

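The response to poly(I:C) differed between transfections for 5 members, each by a test of the difference itself in edgeR's fit, and each value is a difference of log2 fold changes. For APOBEC3B the response was -0.50 between siNT and Mock, 1.51 between siELMO1 and Mock and 2.01 between siELMO1 and siNT, and the difference of largest size rests on the low level of the 3 siELMO1 libraries at 0 h, 11.0 to 12.1 CPM. APOBEC3F differed by -0.55 (siNT against Mock) and -0.64 (siELMO1 against Mock), and APOBEC3G by -0.78 and -0.60 in the same comparisons. ADAR differed by -0.24 (siNT against Mock). ADARB1 differed by 0.52 (siNT against Mock) and by -0.39 (siELMO1 against siNT), with mean 0 h levels in CPM of 34.2 (Mock), 24.9 (siNT) and 30.6 (siELMO1) and 24 h levels of 22.6 to 24.2 CPM. What produced these differences was not tested.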

How the results depend on the processing

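Of 50 calls of members in the 12 comparisons, 36 held under all alternatives run for them (up to 27 a result, of which 9 changed a method and 18 left out a library), 14 were lost under at least 1 and 0 reversed; 17 of 46 values not called passed under at least 1. The ADARB1 value in siNT cells ranged from -0.0793 to 0.0233 with 1 library left out (positive without siNT 0 h replicate 1). Between siELMO1 and siNT, that of APOBEC3C at 0 h ranged from -0.142 to 0.0195 (positive without siELMO1 0 h replicate 1), that of APOBEC3D at 24 h from -0.203 to 0.255 (negative without siNT 24 h replicate 1) and that of APOBEC3H at 24 h from -0.0601 to 0.616 (negative without siELMO1 24 h replicate 1). With every gene of at least 1 count tested, 1 member in place of 4 was called between siNT and Mock at 0 h, and with only the libraries compared in the fit 1 in place of 2 between siELMO1 and siNT at 24 h. With all ADAR transcripts as the denominator the ADAR share differed by 10.6 points on average (exact permutation p = 0.0615) and fell in siNT cells by 8.05 points, and with degraded transcripts that hold the p150 start codon counted it rose by 17.9 points, an alternative chosen after seeing the data. Leaving out 1 library gave 2 to 5 calls between siNT and Mock and 1 to 4 between siELMO1 and Mock at 0 h, 0 to 4 between siELMO1 and siNT at 24 h, 2 to 4 for the response difference between siELMO1 and siNT, and 3 to 6 ADAR transcripts in siNT cells. Those counts were 2 for siNT and Mock without Mock 0 h replicate 1 or 2, siNT 0 h replicate 1 or 2 or Mock 24 h replicate 1, 4 for siELMO1 and Mock without siELMO1 0 h replicate 1 or siNT 24 h replicate 3 and 1 without Mock 0 h replicate 2 or siELMO1 0 h replicate 2, 0 for siELMO1 and siNT at 24 h without siELMO1 24 h replicate 3 and 1 without siNT 24 h replicate 1, and 3 ADAR transcripts without siNT 0 h replicate 3. Without siNT 24 h replicate 3 there were 4 between siELMO1 and siNT at 24 h and 4 for the response difference.

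The replicate block left 5 calls between siNT and Mock at 24 h, lost 0 calls of members, added APOBEC3G between siELMO1 and Mock at 0 h (0.34, adjusted p = 0.0499 in edgeR's test) and gave 4 in place of 5 ADAR transcripts in siNT cells. Scaling by library totals moved the median log2 fold change of all genes with poly(I:C) in Mock from 0.00665 to -0.115, and the share of calls that were higher from 50.9% to 37.9% there, from 55.5% to 43.9% between siELMO1 and Mock at 0 h, from 48.3% to 64.7% for the response difference of siNT and Mock, and from 48.6% to 60.3% for that of siELMO1 and Mock. The causes were not tested. Depth limits APOBEC3A and APOBEC3H most.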
